A study of Mus musculus with 24 samples.

Results

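The promoter mark H3K4me3 was compared between wild-type (WT) mouse embryonic fibroblasts (MEF) and WT fibroblasts from mammary tumors of MMTV-PyMT mice (MMTV-CAF). The members were the broad H3K4me3 regions listed for these 2 libraries, 16089 in MEF and 27339 in MMTV-CAF, out of 136989 regions in the 7 H3K4me3 lists of the series. A MEF and an MMTV-CAF region were paired when they shared at least 1 bp. A protein-coding gene was given a promoter region when a listed region came within 1 kb of any of its transcription start sites (TSSs), and this was done for 22234 genes.

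The series holds 17 peak lists from MEF, MMTV-CAF and dorsal wound fibroblasts, made to follow the transcription factor Prrx1 in fibroblasts. MEF came from C57BL/6 embryos at embryonic days 10 to 13, and MMTV-CAF from FVB/NJ mice. The wound fibroblasts are labelled C57BL/6, as MEF are, so where the wound libraries lay with MEF, strain and fibroblast type cannot be told apart. All cells were immortalized with the papillomavirus genes E6 and E7 and grown under the same conditions. The 2 libraries compared here are labelled wild type for Prrx1. The control for the deleted lines was a non-targeting guide, SgNS, and whether WT MEF carried it is not spelled out. Libraries labelled SG had Prrx1 deleted with a CRISPR guide, and the KI library came from MEF of a Prrx1 mutant mouse. Each group has 1 library, so no test between groups was possible and each value describes 1 culture. Strain, developmental stage, organ and fibroblast type change together, and their parts in any difference cannot be told apart. The Prrx1-deleted library of the same type (SG MEF, SG MMTV-CAF) was read beside each result as the nearest second library, although it is not a replicate. How many animals or clones each culture stands for is not given in the sources used here.

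H3K4me3 is placed on the nucleosomes around active and poised gene starts by the SET1 and MLL methyltransferase complexes, and most CpG-rich promoters carry it in every cell type. The width of a marked region differs between genes, and the widest regions often cover genes that set or maintain the identity of a cell. Promoters with few CpG dinucleotides tend to be marked only where the gene is in use.

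Sequence upstream of a gene start is shown for 5 genes whose promoters recur below, chosen after their values were seen. Each is the 200 bases before the main TSS in NCBIM37 (mm9), read 5′ to 3′ on the strand of the gene, with every CG dinucleotide in capitals. Eya1 (chr1:14300282-14300481, minus strand) and Rspo3 (chr10:29255674-29255873, minus strand) carried an H3K4me3 region in MEF and none in MMTV-CAF. Meox2 (chr12:37834927-37835126, plus strand) and Mmp3 (chr9:7445622-7445821, plus strand) carried one in MMTV-CAF and none in MEF. Col1a2 (chr6:4455502-4455701, plus strand) was marked in both and is among the genes with the largest width difference.
Eya1: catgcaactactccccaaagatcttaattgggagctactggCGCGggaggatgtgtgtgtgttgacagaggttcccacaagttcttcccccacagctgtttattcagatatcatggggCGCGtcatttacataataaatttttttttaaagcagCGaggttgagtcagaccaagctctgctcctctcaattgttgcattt
Rspo3: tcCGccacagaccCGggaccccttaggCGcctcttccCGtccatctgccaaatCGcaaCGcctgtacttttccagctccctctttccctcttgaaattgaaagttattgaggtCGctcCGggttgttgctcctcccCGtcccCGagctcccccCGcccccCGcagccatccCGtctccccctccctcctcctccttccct
Meox2: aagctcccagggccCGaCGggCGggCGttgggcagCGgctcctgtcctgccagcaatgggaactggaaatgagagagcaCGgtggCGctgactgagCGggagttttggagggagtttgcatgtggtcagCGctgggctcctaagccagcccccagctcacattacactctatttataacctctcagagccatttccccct
Mmp3: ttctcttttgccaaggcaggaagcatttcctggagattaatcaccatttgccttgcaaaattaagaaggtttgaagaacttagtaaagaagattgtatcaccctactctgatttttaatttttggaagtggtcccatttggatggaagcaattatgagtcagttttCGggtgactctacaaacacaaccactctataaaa
Col1a2: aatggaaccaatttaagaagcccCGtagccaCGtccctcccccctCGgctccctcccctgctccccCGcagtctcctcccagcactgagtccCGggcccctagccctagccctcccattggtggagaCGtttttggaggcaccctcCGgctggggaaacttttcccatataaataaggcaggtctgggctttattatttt
The windows hold 5 (Eya1), 13 (Rspo3), 9 (Meox2), 1 (Mmp3) and 7 (Col1a2) CG dinucleotides, and the main TSS of each gene lay inside its listed region. The same 200 bases before the main TSS of all 22234 genes held a median of 7 CG, and 90.4% of them held at least 1. The median was 14 for genes marked in both types, 11 for genes marked in MEF only, 4 for genes marked in MMTV-CAF only and 2 for genes marked in neither. Over 500 bp on each side of the main TSS, the ratio of observed to expected CpG had a median of 0.741 for genes marked in both types, 0.631 for MEF only, 0.319 for MMTV-CAF only and 0.212 for neither. By these medians the promoters marked in MMTV-CAF only were poorer in CpG than those marked in MEF only. Eya1 and Meox2 departed from that order in the 200-base counts but not by the ratio, which was 0.760 at Eya1 and 0.444 at Meox2.

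The 2 lists differed in make-up before any gene was compared. The score of a region is its −log10 p against input as the authors' peak caller gave it, and a score of at least 10 is called strong here. Strong regions made up 75.1% of the MEF list (12086 regions) and 44.8% of the MMTV-CAF list (12253 regions), so that the numbers of strong regions were close although the lists were not. The median width was 1720 bp in MEF and 1176 bp in MMTV-CAF, and the median fold enrichment over input was 4.97 and 3.58. Regions wider than 4 kb numbered 987 in MEF and 3002 in MMTV-CAF, and the widest were 16496 and 28257 bp. Width went with score in both lists (Spearman's rho over regions 0.717 in MEF and 0.795 in MMTV-CAF, a description in which regions share 1 library). The sequencing depth behind the lists is unknown. In a bulk library the share of cells that carry a mark and the strength of the mark per cell cannot be told apart.

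Markers of fibroblasts and of cells that a tissue culture could carry along were read first. Of 12 fibroblast markers, 10 had a promoter region in both types, among them Col1a1, Col1a2, Col3a1, Pdgfra, Pdgfrb and Vim. Fap was listed in MEF only and Lum in neither. Of 12 epithelial markers, 10 were listed in neither type, Cdh1 had a weak region in MEF (333 bp), and Krt19 had a region in both (745 bp in MEF, 2313 bp in MMTV-CAF). Among 8 leukocyte markers the macrophage gene Cd68 had a weak region of 502 bp in MMTV-CAF and the other 7 had none. Of 6 mammary markers, Esr1 (1235 and 2115 bp) and Gata3 (2638 and 3463 bp) were listed in both types, Pgr had a weak region of 323 bp in MMTV-CAF, and 3 were in neither. Of 5 adipocyte markers, Pparg was listed in both types (678 and 1287 bp), Fabp4 had a weak region of 266 bp in WT MMTV-CAF and 1965 bp in SG MMTV-CAF, and 3 were in neither. Of 6 endothelial markers Kdr was listed in both types, and none of 4 skeletal muscle markers was listed in either. The MEF list held 7 regions on chromosome Y and the MMTV-CAF list 0.

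Almost every MEF region had a partner in MMTV-CAF, while only about 1 in 2 MMTV-CAF regions had one in MEF. The paired share was 90.3% of MEF regions (Wilson 95% interval 89.8 to 90.7%) and 51.2% of MMTV-CAF regions (50.6 to 51.7%). These intervals, and the others given for shares, cover counting error only. The shortfall lay in weak regions. Among MMTV-CAF regions with a score below 5 (9434 regions), 6.38% were paired. From 5 to 10 the share was 28.3% of 5652 regions, from 10 to 20 it was 79.5% of 2002, and from 20 to 40 it was 98.5% of 3982. At a score of 40 or more, 6268 of 6269 MMTV-CAF regions had a MEF partner. In MEF even the weakest class was mostly paired, with 66.9% of 1679 regions below 5, 73.5% of 2324 from 5 to 10, 86.0% of 1895 from 10 to 20, 98.4% of 7177 from 20 to 40 and 99.6% of 3014 at 40 or more. Strong regions were therefore paired at like rates in both directions, 96.7% of strong MEF regions and 96.2% of strong MMTV-CAF regions.

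**Figure D1:**
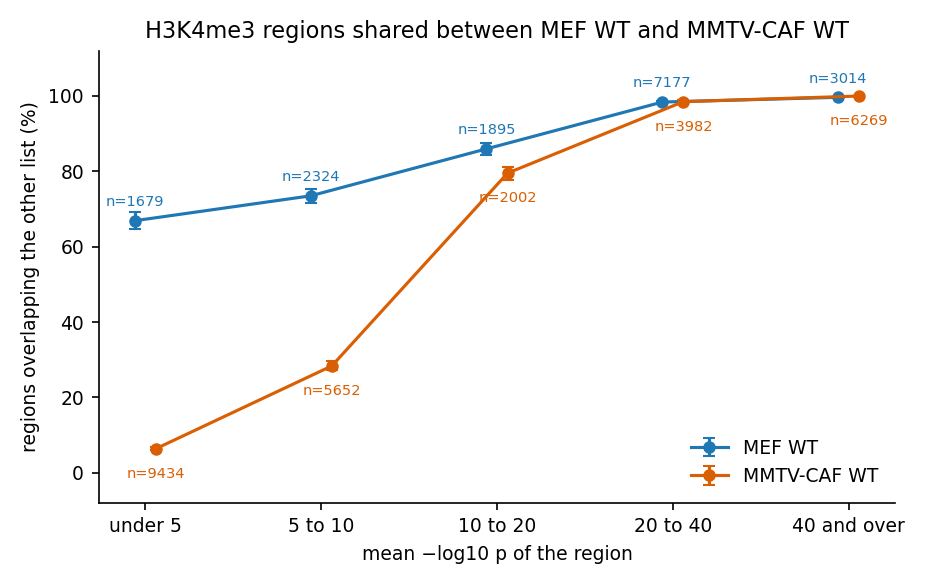
Share of H3K4me3 regions that overlap a region of the other WT library by at least 1 bp (y axis, percent), by class of −log10 p (x axis), for MEF and MMTV-CAF, with Wilson 95% intervals as bars. MMTV-CAF regions climb from 6.38% in the weakest class to nearly all regions at 40 or more, and MEF regions start at 66.9%.

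The unpaired regions of the 2 types lay in different places. Of 13353 unpaired MMTV-CAF regions, 8.06% were at a protein-coding promoter, 54.0% lay within gene bodies and 35.9% between genes. Their median width was 545 bp and their median score 4.33. Of them 53.7% overlapped a region of the SG MMTV-CAF list and 1.77% a region of the SG MEF list. The 471 strong ones overlapped SG MMTV-CAF in 91.7% of cases and SG MEF in 8.49%, and 25.3% were at promoters while 40.1% were intergenic. Unpaired MEF regions were fewer, 1565, and 49.3% were at promoters. Of the 393 strong ones, 71.0% were at promoters, 93.1% overlapped SG MEF and 29.3% SG MMTV-CAF. In the WT wound fibroblasts, 88.3% of the strong unpaired MEF regions and 40.6% of the strong unpaired MMTV-CAF regions were listed as well.

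At the level of genes, 11681 of 22234 protein-coding genes (52.5%) had a promoter region in both types and 9383 (42.2%) in neither. A region in MEF only was found for 679 genes (3.05%) and in MMTV-CAF only for 491 (2.21%). With both lists restricted to strong regions the counts were 542 (2.44%) and 333 (1.50%), with 10903 genes in both. The strictest reading asks for a strong region in one type and no region of any score in the other. It left 260 genes in MEF (1.17%), at 253 distinct regions, and 123 genes in MMTV-CAF (0.553%), at 120 distinct regions. These are called the strong one-type genes here.

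The strong one-type genes were then looked up in the 5 other H3K4me3 libraries. Of the 260 MEF genes, 236 (90.8%) had a promoter region in SG MEF, 141 (54.2%) in KI MEF, 77 (29.6%) in SG MMTV-CAF, 243 (93.5%) in WT wound and 236 in SG wound fibroblasts. Of the 123 MMTV-CAF genes, 103 (83.7%) had one in SG MMTV-CAF, 10 (8.13%) in SG MEF, 11 (8.94%) in KI MEF, 55 (44.7%) in WT wound and 69 (56.1%) in SG wound fibroblasts. A gene whose type difference held in both SG libraries as well was present in the SG library of its own type and absent from that of the other. This was so for 166 MEF genes (63.8%) and 94 MMTV-CAF genes (76.4%). The KI list was the weakest of the MEF lists, with 49.4% strong regions. The remaining genes include those where the second library of the same type lacked the region, and at these the type difference rests on the WT libraries alone.

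**Figure D2:**
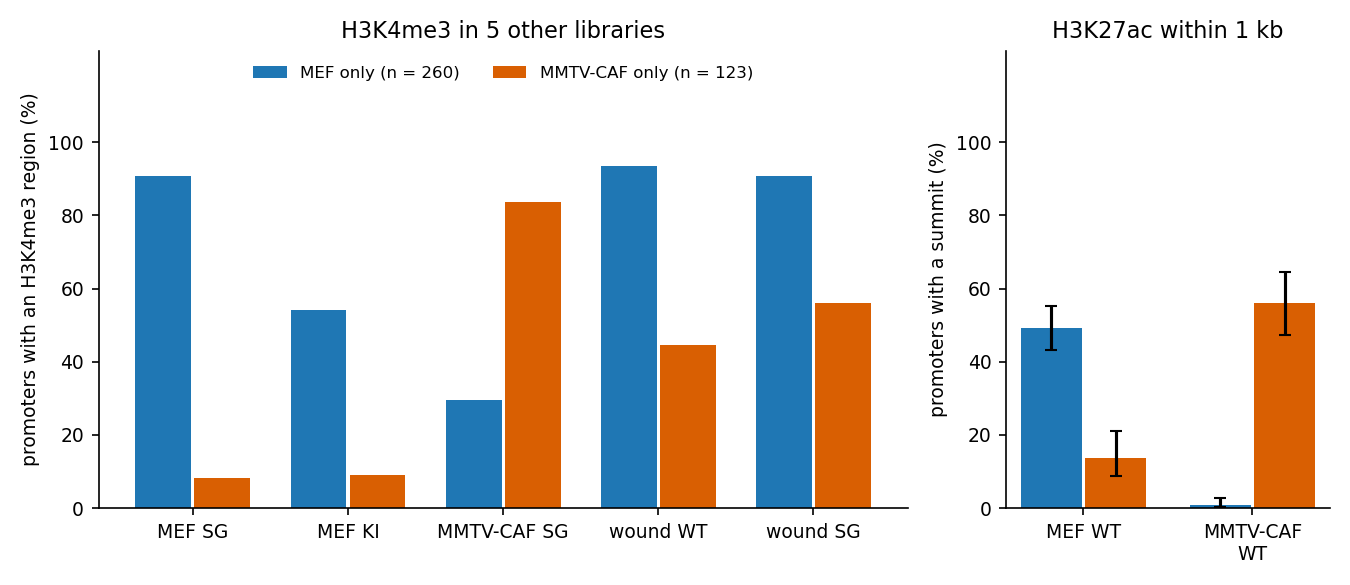
Percent of the strong one-type genes (260 of MEF, 123 of MMTV-CAF) that also had a promoter H3K4me3 region in each of the 5 other libraries (left), and percent with an H3K27ac summit within 1 kb of a TSS in the WT libraries (right, Wilson 95% intervals as bars). MEF genes reach 90.8% in SG MEF and 29.6% in SG MMTV-CAF, and MMTV-CAF genes 83.7% in SG MMTV-CAF and 8.13% in SG MEF.

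A second mark was read at the same promoters. H3K27ac, which marks active promoters and enhancers, is deposited as summit positions, and a summit within 1 kb of a TSS was counted. Of the 260 strong MEF genes, 49.2% (43.2 to 55.3%) had an H3K27ac summit in WT MEF and 0.769%, which is 2 genes, in WT MMTV-CAF. Of the 123 strong MMTV-CAF genes, 56.1% (47.3 to 64.5%) had one in WT MMTV-CAF and 13.8% (8.81 to 21.0%) in WT MEF. Genes marked in both types had one in 90.5% (MEF) and 91.0% (MMTV-CAF) of cases, and genes marked in neither in 0.853% and 1.08%. Over one-type genes of any score, a summit in their own type was found at 22.4% of the 679 MEF only and 44.6% of the 491 MMTV-CAF only genes. A summit in the other type was found at 0.736% of the MEF only genes and 19.3% of the MMTV-CAF only genes, so the share was higher in the type with the H3K4me3 region in both groups. A Prrx1 summit of WT MMTV-CAF lay within 1 kb of a TSS at 14.2% of genes marked in both types, at 7.94% of all MMTV-CAF only genes, at 13.0% of the strong ones, and at 0 of the 679 MEF only genes. A Prrx1 summit of WT MEF lay there at 1.15% of the strong MEF only genes, 2.44% of the strong MMTV-CAF only genes and 1.04% of genes marked in both types, so the MEF summits were not more frequent at the MEF only genes than at the MMTV-CAF only genes.

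The 12 strong MEF only promoter regions with the highest scores included those of the developmental genes Eya1, Rspo3 and Sim2, the receptors Ptprk, Epha7 and Gpr126 and the MHC gene H2-K1. Eya1 (ENSMUSG00000025932.7, chr1:14159035-14300281, minus strand), a transcriptional coactivator of ear, kidney and branchial arch development, had a region of 4312 bp with a score of 44.5 in WT MEF. It was 4076 bp wide in SG MEF, 3588 bp in KI MEF, 1339 bp in WT wound and 4404 bp in SG wound fibroblasts, and was missing from both MMTV-CAF libraries. Rspo3 (chr10:29172915-29255673, minus strand), a secreted enhancer of Wnt signalling, followed the same pattern, with 3616 bp in WT MEF, 3247 bp in SG MEF, 3081 bp in KI MEF, 1057 bp and 1835 bp in WT and SG wound fibroblasts and no region in either MMTV-CAF library. No H3K27ac summit lay within 1 kb of an Rspo3 TSS in WT MEF, while the other 11 regions had at least 1 there, and none of the 12 had one in WT MMTV-CAF.

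Ptprk, a receptor tyrosine phosphatase (chr10:27794626-28317203), had 5004 bp in WT MEF, 4429 bp in SG MEF and 3600 bp in KI MEF. Epha7, an ephrin receptor (chr4:28740281-28894649), had 4023, 3839 and 2212 bp in these libraries. Gpr126, an adhesion receptor needed for myelination by Schwann cells (chr10:14122391-14264842), had 2496, 1237 and 2764 bp. All 3 receptors were listed in both wound libraries and in neither MMTV-CAF library. Ptgis, the prostacyclin synthase, had 2223 bp in WT MEF, 2239 bp in SG MEF, 3947 bp in WT wound and 5042 bp in SG wound fibroblasts and was not listed in KI MEF or in MMTV-CAF. H2-K1 (chr17:34132962-34137278, minus strand), a classical MHC class I heavy chain, had 1970 bp in WT MEF, 2049 bp in SG MEF, 1688 bp in KI MEF and 1904 and 2092 bp in wound fibroblasts, against no region in either MMTV-CAF library. H2-K1 differs in sequence between mouse strains, the tumor fibroblasts are of the FVB/NJ strain, and the reads were aligned to the C57BL/6 reference. How far this lowers the reads placed there was not tested.

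At 4 of the 12 regions SG MMTV-CAF had a region. Igf2bp3, a fetal RNA-binding protein, had 4497 bp in WT MEF and none in WT MMTV-CAF, but 3412 bp in SG MEF and 3261 bp in SG MMTV-CAF. Sim2, a patterning factor, had 3006 bp in WT MEF, 2863 bp in SG MEF and 2365 bp in SG MMTV-CAF. Slc38a1, a glutamine transporter, had 4084 bp in WT and 3929 bp in SG MEF against 679 bp in SG MMTV-CAF, so the SG pair still differed there. Tbc1d9 and the predicted gene Gm10645 share a region of 2119 bp in WT MEF that was 2227 bp wide in SG MEF and 2683 bp in SG MMTV-CAF. The region with the highest score, 53.8, was a narrow one of 670 bp at the predicted gene Gm14399, listed in all 5 libraries other than MMTV-CAF.

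The 12 strong MMTV-CAF only promoters with the highest scores were of another kind. For 10 of the 12, every MMTV-CAF region at the promoter had a MEF partner at a neighbouring position. It reached within 1 kb of the named TSS only in MMTV-CAF. At 9930021D14Rik, where the score was 78.0, the region of 4863 bp also covers the promoter of Pgp. At Foxh1 it covers that of Ppp1r16a, at Hsf2bp that of Rrp1b, at Fam166a that of Tubb2c, at 4930415O20Rik that of Ccnt1, at Tmem88 those of Cyb5d1 and Lsmd1, at Rhbdl1 those of Jmjd8 and Stub1, and at Hrc that of Trpm4. Nup160 and Zfp498 made up the 10. These genes count as MMTV-CAF only because a region that overlaps a MEF region came within 1 kb of their TSS in MMTV-CAF and not in MEF. Over all 123 strong MMTV-CAF only genes, 33 had only promoter regions of this kind. The other 90 had at least 1 promoter region, of any score, with no MEF partner, so their strong region may still be paired. In MEF, 6 of 260 strong one-type genes had only paired promoter regions. The remaining genes of the 12, Gm10250 (score 55.8) and Msh4 (46.6), had at least 1 promoter region without a MEF partner. That region need not be the strong one. Of the 6269 MMTV-CAF regions with a score of 40 or more, 6268 had a MEF partner. The strong regions of these genes were therefore not both unpaired. Gm10250, a predicted gene, had 5451 bp in WT and 5221 bp in SG MMTV-CAF. Msh4, a meiotic mismatch repair protein, had 7796 bp in WT MMTV-CAF and was listed in none of the other libraries, SG MMTV-CAF included.

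The MMTV-CAF only genes with at least 1 unpaired promoter region were therefore ranked by score as well, a ranking added after the values were seen. The region with the highest score at such a gene can itself be paired. Meox2 (ENSMUSG00000036144.4, chr12:37835127-37908372, plus strand), a homeobox factor of limb muscle and vascular cells, had 5410 bp in WT and 5290 bp in SG MMTV-CAF and was listed in none of the other 5 libraries. It had 1 H3K27ac summit within 1 kb in WT MMTV-CAF and 0 in WT MEF. Pygl, the liver glycogen phosphorylase, had 3093 bp in WT and 2804 bp in SG MMTV-CAF and a weaker trace of 526 bp in SG wound fibroblasts. Angptl4, a secreted inhibitor of lipoprotein lipase (chr17:33910695-33918520, minus strand), had 4901 bp in WT and 4217 bp in SG MMTV-CAF, 3399 and 4194 bp in WT and SG wound fibroblasts, and none in MEF. Prrx1 summits lay within 1 kb of its TSSs in both WT types, 1 in MEF and 2 in MMTV-CAF. Gm13157 had the highest score, 42.5, among these genes after Gm10250 and Msh4, with 1814 bp in WT and 1668 bp in SG MMTV-CAF and regions of 1361 and 1522 bp in wound fibroblasts.

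Width was compared at the 11681 promoters marked in both types, taking the widest region at each promoter. MMTV-CAF regions were wider at 88.5% of them. The median log2 ratio of MMTV-CAF width over MEF width was 0.40, a fold of 1.32, with a standard deviation over promoters of 0.54, and in the SG pair the median was 0.43. The median width was 2260 bp in MEF and 3039 bp in MMTV-CAF. A promoter region was at least 2-fold wider in MMTV-CAF at 1101 genes (9.43%) and at least 2-fold wider in MEF at 177 (1.52%). With the MMTV-CAF widths divided by the median ratio, these counts were 436 and 341. Since the whole distribution is shifted, values below are read against 0.40, and a gene at a log2 ratio of 0 is narrower in MMTV-CAF than most.

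**Figure D3:**
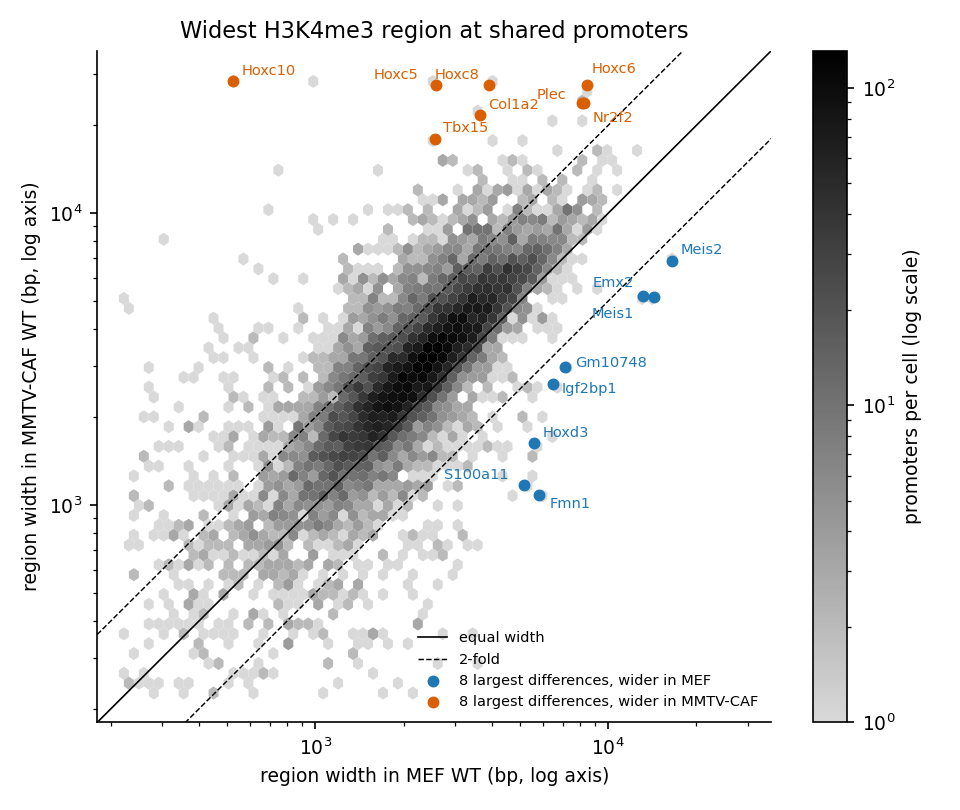
Width of the widest promoter H3K4me3 region in WT MEF (x axis, bp, log scale) and WT MMTV-CAF (y axis, bp, log scale) for the 11681 promoters marked in both, with gray cells shaded by the number of promoters (log scale), lines for equal width and a 2-fold difference, and, among promoters with strong regions in both types, the 8 largest differences in base pairs per direction as named points. Most promoters lie above the line of equal width, 1101 beyond the 2-fold line on the MMTV-CAF side and 177 on the MEF side.

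The genes with a 2-fold difference were then read in the SG pair, where 94.2% of all shared promoters measured were wider in SG MMTV-CAF, 11.8% by at least 2-fold, and 0.617% were at least 2-fold wider in SG MEF. Of the 1101 genes, 1000 had a region in both SG libraries, 990 of these (99%) were wider in SG MMTV-CAF than in SG MEF, and 526 (52.6%) by at least 2-fold. None was 2-fold wider in SG MEF. Of the 177 genes wider in MEF, 123 had a region in both SG libraries, 51.2% were wider in SG MMTV-CAF, 27 (21.95%) were at least 2-fold wider in SG MEF, 28 (22.8%) were at least 2-fold wider in SG MMTV-CAF, and their median log2 ratio there was 0.04. The median MMTV-CAF width of these 177 was 588 bp, against 2039 bp in MEF, so most had a narrow region in WT MMTV-CAF. With a strong region asked for in both types, 49 of the MEF direction and 928 of the MMTV-CAF direction were counted. H3K27ac summits within 10 kb of the TSSs averaged 3.25 in MEF and 4.60 in MMTV-CAF at genes 2-fold wider in MMTV-CAF. They averaged 1.82 and 0.921 at genes 2-fold wider in MEF, and 2.34 and 2.68 at genes within 2-fold. A Prrx1 summit of WT MMTV-CAF lay within 1 kb of a TSS at 18.2% of the genes wider in MMTV-CAF, 3.96% of those wider in MEF and 14.0% of those within 2-fold.

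Among promoters with strong regions in both types, the 8 largest differences in base pairs toward MMTV-CAF were at Hoxc10, Hoxc5, Hoxc8, Hoxc6, Col1a2, Plec, Nr2f2 and Tbx15, of which the first 4 lie in the HoxC cluster. Hox proteins assign position along the body axis and in the limbs, and fibroblasts keep their Hox pattern in culture. Hoxc10 (ENSMUSG00000022484.7, chr15:102797227-102802324, plus strand) had a region of 524 bp with a score of 11.3 in WT MEF. In WT MMTV-CAF it lay in a region of 28257 bp with a score of 55.5, at chr15:102790534-102818790, that also covers Hoxc9. The log2 width ratio was 5.75 at Hoxc10 and 4.83 at Hoxc9, where the MEF region was 996 bp wide with a score of 4.09. The MMTV-CAF region holds 3 MEF regions that cover 14.9% of it. No H3K27ac summit lay within 10 kb of the Hoxc10 TSSs in MEF, and 8 did in MMTV-CAF. The domain was as wide in SG MMTV-CAF (28437 bp), WT wound (25297 bp) and SG wound fibroblasts (28250 bp), while SG MEF had 629 bp at Hoxc10 and KI MEF none. At Hoxc9 and Hoxc10 it was therefore MEF that stood apart from the MMTV-CAF and wound libraries.

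The neighbouring domain behaved otherwise. Hoxc8, Hoxc6 and Hoxc5 lay in a single MMTV-CAF region of 27443 bp (chr15:102819354-102846796), where MEF had separate regions of 3903, 8479 and 2575 bp. In all, 5 MEF regions covered 83.3% of it, so that MEF had most of the same ground in pieces. In SG MMTV-CAF the region was 27392 bp wide. WT wound fibroblasts had 3906, 8697 and 3636 bp at the 3 genes, close to MEF, and SG wound fibroblasts had 23081 bp at Hoxc8 and Hoxc6 and 2103 bp at Hoxc5. A width ratio at Hoxc5 of 3.41 thus counts a joining of regions, and one at Hoxc10 counts bases that MEF did not have.

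The other Hox clusters differed less and not in one direction. Over the 8 HoxC genes marked in both types the median log2 ratio was 2.25, against 0.15 over 8 HoxA genes, 0.14 over 6 HoxB genes and 0.10 over 3 HoxD genes. In HoxA, the neighbours Hoxa7, Hoxa9 and Hoxa10 lay in a single MMTV-CAF region of 15273 bp (15764 bp in SG MMTV-CAF) where MEF had 2775, 3001 and 3001 bp. Wound fibroblasts were wider still at these genes, with 20288 bp (WT) and 32735 bp (SG). Hoxa3 and Hoxa6 shared regions of 6282 bp in MEF and 6304 bp in MMTV-CAF. Hoxa5 (5610 bp) and Hoxa13 (635 bp) were strong MEF only genes. Hoxa5 was absent from both MMTV-CAF libraries, but Hoxa13 had 1046 bp in SG MMTV-CAF. In HoxB, Hoxb5 and Hoxb4 were strong MMTV-CAF only genes, with 12357 bp and 2592 bp in the WT library. Hoxb5 shares its region with Hoxb6, and in SG MMTV-CAF it had 822 bp and Hoxb4 none. In HoxC, Hoxc12 had 891 bp in MMTV-CAF and none in WT MEF, with 560 bp in SG MEF. In HoxD, Hoxd1 was a strong MEF only gene (774 bp) that SG MEF lacked, and Hoxd3 was wider in MEF, at 5597 against 1632 bp. In SG MEF Hoxd3 had 1927 bp.

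**Figure D4:**
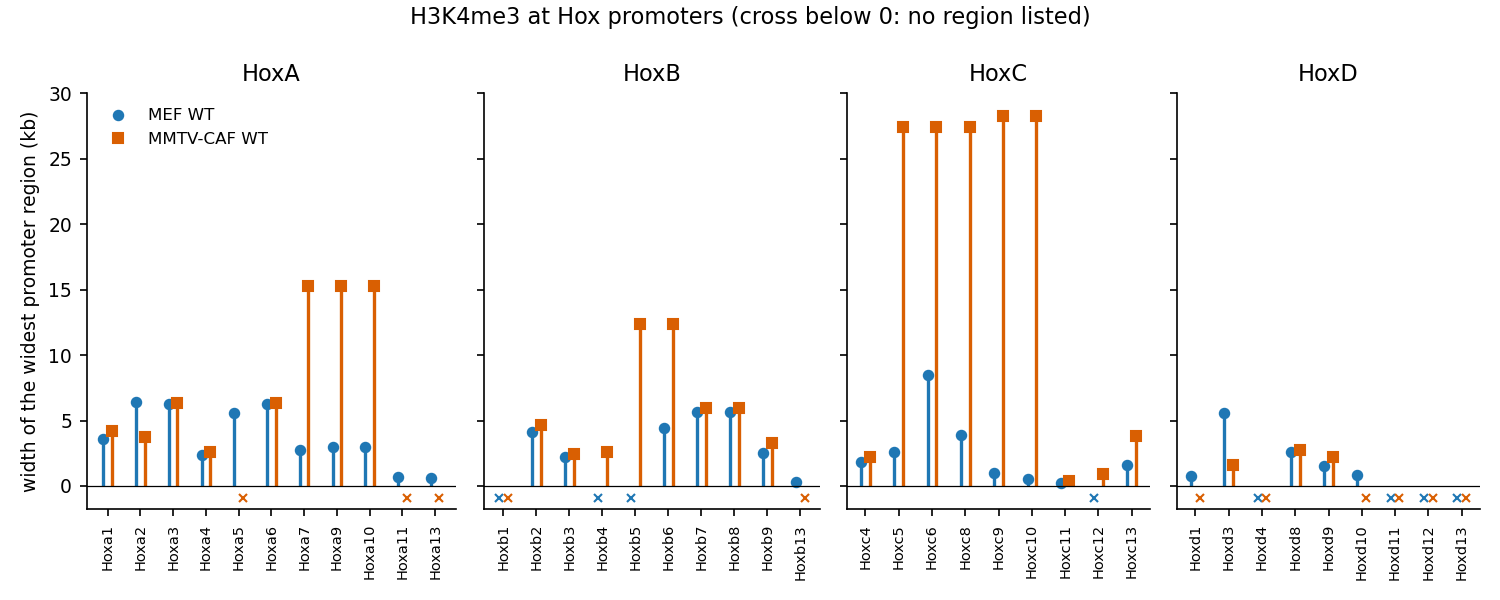
Width of the widest promoter H3K4me3 region (y axis, kb) at each gene of the 4 Hox clusters in WT MEF (circles) and WT MMTV-CAF (squares), with a cross where no region was listed. Hoxc5, Hoxc6, Hoxc8, Hoxc9 and Hoxc10 reach over 27 kb in MMTV-CAF and stay below 9 kb in MEF.

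Col1a2 (ENSMUSG00000029661.9, chr6:4454814-4491543, plus strand), a chain of type I collagen, had a region of 3648 bp in WT MEF and 21610 bp in WT MMTV-CAF (chr6:4454303-4475912), a log2 ratio of 2.57. The 2 MEF regions inside cover 29.7% of it. Within 10 kb of its TSSs there were 6 H3K27ac summits in MEF and 24 in MMTV-CAF, and 1 Prrx1 summit of MMTV-CAF lay within 1 kb. Its width was 3569 bp in SG MEF, 3461 bp in KI MEF, 10048 bp in SG MMTV-CAF, and 3446 and 1985 bp in WT and SG wound fibroblasts, so both MMTV-CAF libraries lay above all 5 others. Tbx15, a T-box factor of skin and limb mesenchyme, had 2560 bp in WT and 2416 bp in SG MEF against 18013 bp in WT and 18193 bp in SG MMTV-CAF, and 8902 bp in KI MEF. Nr2f2, a nuclear receptor of mesenchyme and veins, had 8281 against 23877 bp, with 8379 bp in SG MEF and 23575 bp in SG MMTV-CAF. Plec, the cytoskeletal linker plectin, had 8152 against 23890 bp, with 4296 and 20610 bp in the SG libraries. Neither wound library exceeded 7849 bp at Plec, Nr2f2 or Tbx15.

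Toward MEF, the 8 largest differences at such promoters were at Meis2, Meis1, Emx2, Fmn1, Gm10748, S100a11, Hoxd3 and Igf2bp1. Meis2 and Meis1 are homeodomain cofactors of Hox proteins, and Emx2 is a homeobox factor of forebrain, urogenital tract and shoulder girdle. Meis2 (chr2:115688800-115891575, minus strand) had 16496 bp in WT MEF, the widest region of the list, and 6870 bp in WT MMTV-CAF, a log2 ratio of −1.26. It had 21387 bp in SG MEF and 6814 bp in SG MMTV-CAF, 12893 and 23081 bp in wound fibroblasts and 6097 bp in KI MEF. There were 12 H3K27ac summits within 10 kb of its TSSs in MEF and 4 in MMTV-CAF. Meis1 (chr11:18780433-18918961, minus strand) had 14328 against 5152 bp, with 9278 and 4782 bp in the SG libraries, and Emx2 (chr19:59533180-59539847, plus strand) had 13099 against 5222 bp, with 12642 and 4324 bp. At Meis2, Meis1 and Emx2 the MEF width exceeded the MMTV-CAF width in the WT and in the SG pair, and KI MEF was narrow at all of them (6097, 3542 and 3977 bp). S100a11, a calcium-binding protein, had 5137 against 1170 bp in the WT pair and 4820 against 1028 bp in the SG pair, with 3 MMTV-CAF regions covering 73.4% of the MEF region.

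The other members of this group were less uniform. At Igf2bp1, an RNA-binding protein of fetal growth, the widest regions of the 2 types lay at different TSSs, 6483 bp in MEF and 2592 bp in MMTV-CAF, and SG MMTV-CAF had 6120 bp. At Fmn1, a formin that nucleates actin, they also lay at different TSSs (5816 and 1080 bp).

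Transcription factors of regional identity other than the Hox genes were counted as a list. Of 85 such genes, 40 had a promoter region in both types, 18 in MEF only, 2 in MMTV-CAF only and 25 in neither, and 9 were strong MEF only genes against 1 in MMTV-CAF. Over all genes the shares were 3.05% (MEF only), 2.21% (MMTV-CAF only), 1.17% (strong MEF only) and 0.553% (strong MMTV-CAF only). The MEF genes included Eya1, Pitx1 (4003 bp), Wt1 (3685 bp), Zic2 (3356 bp), Sim2 (3006 bp), Alx1 (2600 bp), Nkx2-5 (2086 bp) and Isl1 (1657 bp). These genes pattern limb, heart, gonad, face and neural tube. SG MMTV-CAF had no region at Eya1, Pitx1, Alx1, Nkx2-5 and Isl1, and had regions of 571 bp at Wt1, 1643 bp at Zic2 and 2365 bp at Sim2. In wound fibroblasts Pitx1 had 1378 (WT) and 6046 bp (SG). The strong MMTV-CAF gene was Msx2 (1766 bp), which SG MMTV-CAF lacked and which SG MEF (475 bp), KI MEF (613 bp) and both wound libraries listed. Over the 40 shared promoters the median log2 ratio was 0.17, below the 0.40 over all genes, with 5 at least 2-fold wider in MEF and 7 in MMTV-CAF (against 1.52% and 9.43% over all shared promoters). In the SG pair the median over 44 genes was 0.57, above the 0.43 over all genes there, so the place of this list against all genes was not the same in the SG pair. The extremes were Foxd1 at −3.12 (2536 against 292 bp, the latter with a score of 4.17) and Tbx15 at 2.81.

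Most mesenchymal transcription factors were marked in both types. Of 31, 28 had a region in both, 2 in MEF only and 0 in MMTV-CAF only (against 52.5%, 3.05% and 2.21% over all genes), with a median log2 ratio of 0.41 in the WT pair and 0.53 over 29 genes in the SG pair. Prrx1 itself had 8628 bp in WT MEF and 13259 bp in WT MMTV-CAF, a log2 ratio of 0.62, within 1 standard deviation of the median over all promoters. Between the SG libraries it had 7341 and 15484 bp, a log2 ratio of 1.08, so there the difference was more than 2-fold. The strong MEF only genes were Ebf3 (6570 bp), a neurogenic and mesenchymal factor, and Runx3 (2398 bp). Ebf3 had 6763 bp in SG MEF, 6972 bp in KI MEF, 5762 and 2170 bp in wound fibroblasts and no region in either MMTV-CAF library. Runx3 had 1110 bp in SG MMTV-CAF. The lowest ratio was at Twist1, −0.57, and the highest at Tead3, 1.83, where the WT MMTV-CAF region was 11406 bp wide and the SG MMTV-CAF region 3814 bp.

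Genes of the extracellular matrix had wider promoter regions in MMTV-CAF. Of 42, 29 were marked in both types, 2 in MEF only and 3 in MMTV-CAF only (against 3.05% and 2.21% over all genes). The median log2 ratio over the 29 was 1.0, 28 lay above the median of all genes, 16 were at least 2-fold wider in MMTV-CAF (against 9.43% over all shared promoters) and none was 2-fold wider in MEF. In the SG pair the median over 25 of them was also 1.0. Type I collagen was marked by Col1a2 and by Col1a1, which had 4841 bp in WT and 3531 bp in SG MEF against 14732 bp in WT and 9921 bp in SG MMTV-CAF. WT and SG wound fibroblasts had 9927 and 7486 bp at Col1a1, so here the wound libraries lay with MMTV-CAF, unlike at Col1a2. Loxl2, a collagen cross-linking enzyme, had 1297 bp in WT MEF and 6254 bp in WT MMTV-CAF, and Fn1, fibronectin, had 4901 and 9820 bp. The lowest ratio was 0.20, at Vcan. Mfap5, a microfibril protein, was the strong MMTV-CAF only gene (2325 bp, and 1309 bp in SG MMTV-CAF), and Fbn2, the fibrillin of embryonic microfibrils, was the strong MEF only gene (1645 bp). Fbn2 was absent from SG MEF and listed in KI MEF at 1451 bp. All 20 reference genes were marked in both types, with a median log2 ratio of 0.45, and 5 of the 20 were at least 2-fold wider in MMTV-CAF, a larger share than the 9.43% over all shared promoters.

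Contractile genes had a median ratio close to that of all genes in the WT pair and below it in the SG pair. Of 24, 19 were marked in both types (against 52.5% over all genes), with a median log2 ratio of 0.41. Of these, 1 was at least 2-fold wider in MMTV-CAF and 1 in MEF (against 9.43% and 1.52% over all shared promoters). Their SG median over 18 genes was 0.13, against 0.43 over all genes there. Acta2, smooth muscle actin, had 4406 bp in WT MEF and 4905 bp in WT MMTV-CAF. The lowest ratio was at Actg2, −2.09 (1592 against 373 bp, both weak), and the highest at Pdlim7, 1.05. Mylk, the myosin light chain kinase, was a strong MEF only gene with a region of 679 bp that SG MEF lacked.

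Inflammatory mediators had a median width ratio above that of all genes. Of 32, 14 were marked in both types, 0 in MEF only, 3 in MMTV-CAF only and 15 in neither. Over all genes these shares were 52.5%, 3.05%, 2.21% and 42.2%. The median log2 ratio was 0.99, with 7 of the 14 at least 2-fold wider in MMTV-CAF and 1 in MEF (against 9.43% and 1.52% over all shared promoters). In the SG pair the median over 13 genes was 1.13. Cxcl5, a chemokine for neutrophils, was a strong MMTV-CAF only gene with 3617 bp in WT and 4879 bp in SG MMTV-CAF, 789 bp in WT wound fibroblasts and no region in any MEF library. Tslp, an epithelial-type cytokine, had 2337 bp in WT and 2556 bp in SG MMTV-CAF, and 2179 bp in SG MEF. Ccl7, a monocyte chemokine, had the highest ratio, 2.98, with 479 bp (score 3.60) against 3767 bp, and its neighbour Ccl2 had 1321 against 5283 bp. SG MEF listed neither of these chemokines, and SG MMTV-CAF had 3456 bp at Ccl7 and 5122 bp at Ccl2. Cxcl12, the homeostatic chemokine of stromal cells, lay the other way, with 5603 bp in MEF and 1218 bp in MMTV-CAF, a log2 ratio of −2.20, and with 4351 and 2165 bp in the SG pair.

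Metalloproteinases and the plasminogen system gave a median of 0.48 over 19 shared promoters of 27 genes, and 0.30 over 18 in the SG pair. Over all genes 52.5% were shared. Of the 19, 5 were at least 2-fold wider in MMTV-CAF and 3 in MEF (against 9.43% and 1.52% over all shared promoters). Mmp3, stromelysin, was the strong MMTV-CAF only gene, with 1362 bp (score 11.5) in the WT and 383 bp in the SG library and no region in the other 5. Mmp19 had the highest ratio, 2.76 (479 against 3241 bp). The lowest was at Mmp2, −2.94, where WT MEF had 1739 bp and WT MMTV-CAF 227 bp with a score of 3.43. SG MMTV-CAF had 1591 bp at Mmp2, against 1549 bp in SG MEF, so this difference was not seen in the SG pair.

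The signalling lists differed at single genes. Over all genes 52.5% were marked in both types, 1.17% were strong MEF only and 0.553% strong MMTV-CAF only genes. Of 42 genes of the TGF-beta and BMP pathway, 33 were marked in both types, with a median of 0.26, below that of all genes, and 6 were at least 2-fold wider in MMTV-CAF (against 9.43% over all shared promoters). The SG pair gave a median of 0.38 over 30 genes. The ratio was highest at Eng, the co-receptor endoglin (387 against 2968 bp, 2.94), and lowest at Bmpr1b (−0.99). Smad7, the inhibitory Smad, had 7891 against 20400 bp, and 7400 against 18153 bp in the SG pair. Nog, a secreted BMP antagonist, was the strong MEF only gene with 2597 bp in WT and 5713 bp in SG MEF, and was in neither MMTV-CAF library. Of 44 Wnt pathway genes, 29 were marked in both types (median 0.33, and 0.55 over 23 genes in the SG pair), 5 in MEF only and 2 in MMTV-CAF only (against 3.05% and 2.21% over all genes), with Rspo3 the strong MEF only gene and the ligand Wnt10b (1887 bp, and 1522 bp in SG MMTV-CAF) the strong MMTV-CAF only gene. Ratios ran from −1.58 at Frzb, a secreted Wnt antagonist, to 3.45 at Wnt1 (276 against 3019 bp). Among 43 growth factors and receptors the median was 0.42 over 34 (0.50 over 33 in the SG pair), from −2.44 at Fgf9 to 2.34 at Hgf. At Fgf9 the SG pair went the other way, with 1402 bp in SG MEF and 3472 bp in SG MMTV-CAF. Hgf, a ligand for the receptor Met, had 900 bp in WT MEF, 4566 bp in WT and 6821 bp in SG MMTV-CAF, and was not listed in SG MEF.

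Lists tied to development and cell cycle differed in their medians. Over all genes 52.5% were marked in both types and 1.17% were strong MEF only genes. The embryonic growth genes were marked in both types at 6 of 20, with a median of 0.09 and 1 of the 6 above the median of all genes, from Igf2bp1 at −1.32 to Hmga1 at 0.73, and their median in the SG pair was 0.28 over 7 genes. Of 25 genes of skeleton and tendon, 8 were shared (median 0.46, from Col2a1 at −0.41 to Spp1 at 1.01), and Col11a1 (2932 bp) and Mkx (1843 bp) were strong MEF only genes, Mkx with 3888 bp in SG MMTV-CAF. In the SG pair the median over 6 of the skeleton and tendon genes was 1.12, against 0.43 over all genes there, so this list lay near all genes in the WT pair and above them in the SG pair. Of 25 imprinted genes 14 were shared, a share close to that of all genes, with a median of 0.38, and 0.43 over 11 genes in the SG pair. Peg3 (2304 bp) and Plagl1 (2253 bp) were strong MEF only genes and absent from both MMTV-CAF libraries, and Grb10 was lowest at −2.18 (4894 against 1078 bp). Igf2r was highest, at 0.68. All 24 cell cycle genes marked in either type were marked in both, with a median of 0.39 (0.35 over 23 genes in the SG pair), from Cdkn1c at −0.54 to Cdk4 at 2.06.

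Of 9 genes on chromosome Y, 4 had a promoter region in MEF and 0 in MMTV-CAF. Ddx3y (1973 bp), Uty (1388 bp) and Kdm5d (871 bp) were strong and Eif2s3y (420 bp) was weak. Their 7 partners on chromosome X were all marked in both types, with a median log2 ratio of 0.44. Xist, the non-coding RNA of X inactivation, had a region of 6748 bp with a score of 27.2 in WT and 7061 bp in SG MMTV-CAF and none in the other 5 libraries. The sex of the animals was not used here and cannot be told apart from the type. Meg3, an imprinted non-coding RNA, was a strong MEF only gene with 2383 bp in WT and 1871 bp in SG MEF. Of 1113 olfactory receptor genes, 1 had a promoter region in MMTV-CAF and 0 in MEF, and of 24 clustered protocadherins 5 were marked in both types.

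Among the lists with more than 1 shared promoter, interferon response and antigen presentation was the only one whose median lay below 0. Of 27 genes, 20 were marked in both types, 2 in MEF only and 5 in neither (against 52.5%, 3.05% and 42.2% over all genes). The median log2 ratio was −0.41, 1 of the 20 lay above the median of all genes, and 4 were at least 2-fold wider in MEF (against 1.52% over all shared promoters). They were Ifit3 (3553 against 281 bp, −3.66), Oas1a (2018 against 331 bp, −2.61), Isg15 (5384 against 1488 bp, −1.85) and Mx2 (5834 against 2610 bp, −1.16), all products induced by interferon. The scores at Ifit3 were 8.34 and 3.77. H2-K1 and Ifih1, a sensor of viral RNA with 3351 bp in WT MEF, were strong MEF only genes (against 1.17% over all genes). The one above was Tapbp, the chaperone tapasin, at 1.38 (2493 against 6493 bp). This direction was not seen in the SG pair. There the median over 19 genes was 0.70, and Isg15 had 1792 bp in SG MEF and 10371 bp in SG MMTV-CAF. Ifih1 had 2737 bp in SG MMTV-CAF, and H2-K1 was the gene of the list that both MMTV-CAF libraries lacked while all others had it.

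**Figure D5:**
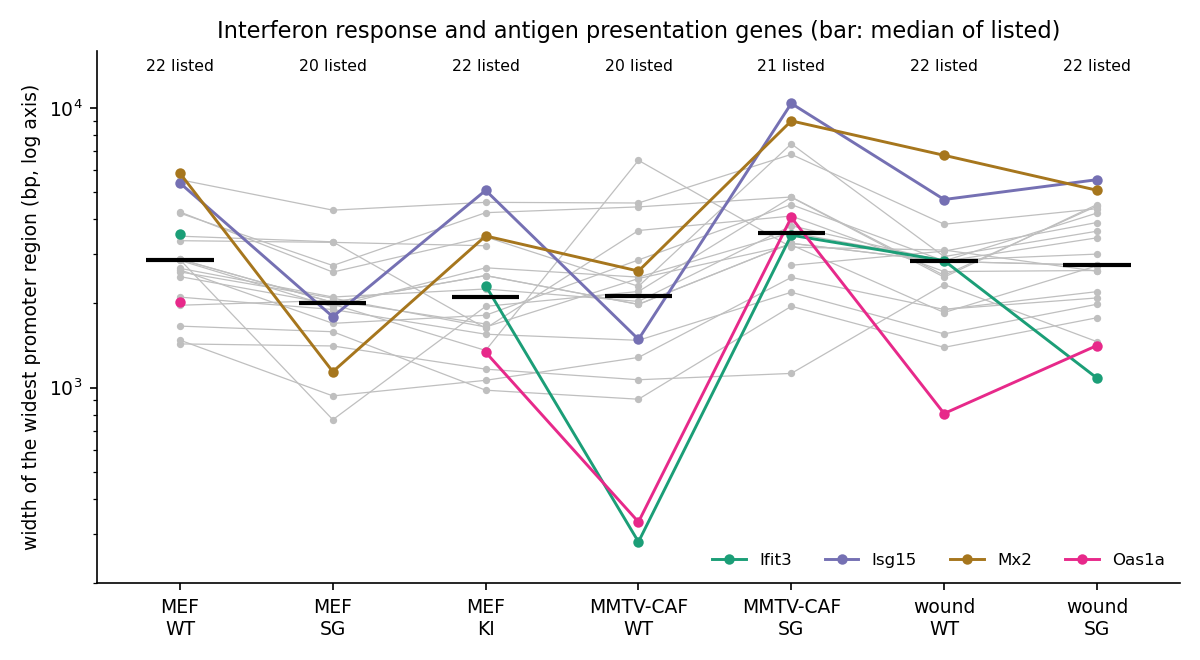
Widths of the widest promoter H3K4me3 region (bp) at the interferon response and antigen presentation genes with a region, by library, with lines joining the values of 1 gene, a log y axis, the 4 genes at least 2-fold wider in WT MEF in color and the median as a black bar. The medians run from 2002 bp in SG MEF to 3579 bp in SG MMTV-CAF, with WT MEF at 2857 bp and WT MMTV-CAF at 2120 bp between them.

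Over the 7 libraries the median width at these genes was 2857 bp in WT MEF, 2002 bp in SG MEF, 2102 bp in KI MEF, 2120 bp in WT MMTV-CAF, 3579 bp in SG MMTV-CAF, and 2825 and 2739 bp in WT and SG wound fibroblasts. The WT values of both types thus lay within the range of the SG values, and the order of the types differed between the WT pair and the SG pair. With 1 library each, culture state and type cannot be told apart.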

How the data were processed

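Peak lists of 1 library per group were compared, and groups were taken from the sample titles. Per the study's methods, the authors trimmed paired reads (Trimmomatic), mapped them to mm9 (Bowtie), discarded PCR duplicates (Picard) and ran MACS2 with the input of each line as control, in broad mode for H3K4me3 with a q cutoff of 0.1. In the deposited H3K4me3 lists a region carries its fold enrichment, a ratio to input, and a −log10 p-value and −log10 q-value, all averaged over the region. The deposited H3K27ac and Prrx1 lists give 1-bp summits with a −log10 p. Reads and inputs were not used here, so the depth is unknown, and the number of regions and their scores stand in for it.

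Coordinates are mm9, printed 1-based. Sequence came from the assembly NCBIM37, the same build, and genes from GENCODE vM1, with 70008 TSSs of 22234 protein-coding genes, and IDs of 1 symbol within 50 kb merged. No region lay beyond a chromosome end (0 of the H3K4me3 regions). Each gene's widest region within 1 kb of a TSS gave its width. A promoter counted as wider at a fold of 2. No p-value was computed, since each group has 1 library. Shares have Wilson 95% intervals. Alternatives were a reciprocal overlap of 50%, a score of at least 10, lists cut to equal length, the TSS base alone, 2.5 kb on each side, bases covered within 10 kb, and widths divided by the median ratio. Leaving out a replicate was not possible.

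Named genes were the 12 strongest one-type genes per type, the 8 largest width differences in base pairs per direction with strong regions in both, the strong one-type members and extremes of each gene list, and Prrx1, Col1a1, Meis2, Hoxc9 and Hoxc10. Other named genes were chosen after their values were seen. A few genes that these rules name are not reported here. The members and gene lists were chosen with earlier results of these data known. The scripts were tested on 2000 simulated promoters, where 5 checks gave 0 wrong values. Scripts ran under Python 3.11.15 with matplotlib 3.10.9, scipy 1.17.1, pandas 2.3.3 and numpy 2.4.6.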

Additional observations from a re-analysis of the deposited data

Results flagged for a closer look

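Among the 16 genes with the largest width differences (8 per direction), 2 were at least 2-fold wider in one type between the WT libraries and at least 2-fold wider in the other type between the SG libraries, and among the lists with more than 1 shared promoter, 1 had medians of opposite sign. At Fmn1 the log2 ratio of MMTV-CAF width over MEF width was −2.43 between the WT libraries and 1.12 between the SG libraries, where SG MEF had 5373 bp and SG MMTV-CAF 11658 bp. At Gm10748, a predicted gene, it was −1.26 and 1.89, with 5628 and 20836 bp in the SG libraries. There, 3 WT MMTV-CAF regions covered 84.9% of the WT MEF region, so the WT value mostly counts a split of the same ground. Over the interferon response and antigen presentation genes the median was −0.41 between the WT and 0.70 between the SG libraries. Single members of the gene lists lay in opposite directions too, such as Fgf9 (−2.44 between the WT and 1.31 between the SG libraries), Serpine2 (−1.54 and 1.07), Isg15 (−1.85 and 2.53) and Mx2 (−1.16 and 2.98). Each value compares single libraries, and the difference between the pairs was not tested.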

How the results depend on the processing

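No paired analysis was possible because each group holds 1 library, and for the same reason no replicate could be left out. The paired share of MEF regions, 90.3%, became 70.8% with a reciprocal overlap of 50%, 92.8% with strong regions in both lists, 96.7% with strong MEF regions against all MMTV-CAF regions and 85.1% in lists of equal length. The MMTV-CAF share, 51.2%, became 41.7%, 90.1%, 96.2% and 81.3% under the same settings, so that the gap between the types depends on the weak MMTV-CAF regions. MEF only genes went from 679 to 260 and MMTV-CAF only genes from 491 to 123 when a strong region and none of any score in the other type were asked for. MMTV-CAF only genes numbered 250 in lists of equal length, where MEF only genes numbered 927. Promoters 2-fold wider in MEF went from 177 to 49 with strong regions in both lists, 93 in lists of equal length and 341 with MMTV-CAF widths divided by the median ratio, which also took those wider in MMTV-CAF from 1101 to 436. The median log2 width ratio stayed between 0.40 and 0.46. Counting only genes with at least 1 promoter region that overlaps none in the other list, chosen after seeing the data, gave 670 and 454 one-type genes. Each comparison rests on 1 library per group and an unknown depth, and a region that is not listed may lie just under the caller's cutoff.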

Other observations

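Some one-type promoters lay side by side. Counting runs of at least 3 neighbouring promoters of a single type, with unmarked genes skipped, there were 15 runs of MEF only genes (52 genes, 7.66% of the 679, over 45 regions) and 6 of MMTV-CAF only genes (24 genes, 4.89% of the 491, over 22 regions). Runs count genes, and neighbouring genes can share a region, so 5 of the MEF runs and 2 of the MMTV-CAF runs held fewer than 3 regions. The runs were looked for after other values were seen. Mmp13, Mmp3 and Mmp27, neighbouring metalloproteinases on chromosome 9 (7272514 to 7571458), were marked in WT MMTV-CAF, 2 of them in SG MMTV-CAF and none in wound fibroblasts or SG MEF. A run of 9 predicted genes at the start of chromosome 9 (3000922 to 3037111) was marked in WT MMTV-CAF, in SG MMTV-CAF and in SG wound fibroblasts at all 9, in WT wound fibroblasts at 2 and in SG MEF at 0. Fold enrichment at their widest WT MMTV-CAF regions was low, from 1.48 to 3.04, against a list median of 3.58. Only Gm10718 and Gm10717 had an H3K27ac summit within 1 kb in WT MMTV-CAF. Reads were not used here, so how they were placed in this stretch was not tested. The MEF runs included interferon-inducible neighbours, Ifi203, Mndal and Ifi205 on chromosome 1 and Rsad2 and Cmpk2 on chromosome 12. In the SG pair these genes lay the other way. Ifi203 and Mndal share a region and, like Ifi205, were not listed in SG MEF and had 333, 333 and 482 bp in SG MMTV-CAF. Rsad2 was not listed in SG MEF and had 3994 bp in SG MMTV-CAF, and Cmpk2 had 1147 and 2817 bp. A run of 4 interferon-inducible neighbours on chromosome 18 was likewise listed at 4 of 4 in SG MMTV-CAF and 0 in SG MEF.

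A MEF run on chromosome X held Shroom2, Usp51, Mageh1, Rragb and Klf8, with TSSs from 149204008 to 149672009. Their regions were 2558, 1057, 2096, 1217 and 1013 bp at the widest in WT MEF. The first 4 of these were strong, and at Klf8 the region of 1013 bp had a score of 5.96 and another region one of 10.5. Each of the 5 libraries other than MMTV-CAF listed 5 regions there, and both MMTV-CAF libraries listed 0. The stretch without an H3K4me3 region ran for 1063776 bp in WT MMTV-CAF (148804491 to 149868268) and for 1063943 bp in SG MMTV-CAF, and in WT MMTV-CAF the stretch without an H3K27ac summit ran for 1064242 bp, with ends close by. WT MEF had 2 H3K27ac summits between the outer promoters. Among gaps in the WT MMTV-CAF list this one held the most strong MEF regions, 5, and the next held 3. Whether the sequence is present in these cells was not tested.

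The reverse gap in the WT MEF list with the most strong MMTV-CAF regions, 9, ran from 47891402 to 47987234 on chromosome X. It falls on the non-coding RNA gene 6720401G13Rik (ENSMUSG00000085396.1, X:47908921-47988498, minus strand), which the RefSeq gene table names Firre. WT MMTV-CAF had 17 H3K4me3 regions inside the gene, covering 11210 bp, of which 9 were strong, and SG MMTV-CAF had 8, covering 5910 bp, of which 1 was strong. WT, SG and KI MEF and both wound libraries had 1 each, and that region was strong in every one of them, so in strong regions SG MMTV-CAF did not differ in number from these libraries. H3K27ac summits numbered 20 in WT MMTV-CAF and 1 in WT MEF, and Prrx1 summits 2 and 0. Xist, on the same chromosome, was listed in both MMTV-CAF libraries only, as given above.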
